A study of Drosophila melanogaster with 4 samples.

Results

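The testis meiotic arrest transcription genes are 10 genes of Drosophila melanogaster that act in transcription in male germ cells before the meiotic divisions. They were chosen by name, as aly (always early), comr (cookie monster), topi (matotopetli), tomb (tombola), achi (achintya), can (cannonball), sa (spermatocyte arrest), mia (meiosis I arrest), nht (no hitter) and rye (ryan express). All 10 had a probe set on the array, out of 11982 genes with a probe set naming exactly 1 gene. Together they had 11 such probe sets, of which rye had 2, and 1 further probe set was assigned jointly to achi and its neighbour vis. The current symbol of rye is Taf12L.

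In primary spermatocytes, the large cells that grow before meiosis, a broad transcription programme makes the RNAs later needed for meiotic division and sperm formation. It depends on 2 sets of proteins. The testis meiotic arrest complex, tMAC, is a testis form of the Myb-MuvB type of complex found in other cells. The testis TAFs are germline copies of TBP-associated factors, the subunits of the general transcription factor TFIID. Without either set no sperm are made, because spermatocytes arrest before the meiotic divisions with much of the programme silent.

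RNA came from whole-fly pools of the wild-type Canton-S strain, on 4 Affymetrix Drosophila Genome 2.0 arrays with 1 array per group. The groups were young flies labelled 1 to 3 days old and old flies labelled 40 days old, each on adult sucrose-yeast food with 0 or 100 µM curcumin, a polyphenol of turmeric. All larvae grew on the same medium, the food without curcumin held the ethanol vehicle alone, and no group carried a mutation or transgene. Per the labels, the groups were set up to compare ages and diets. With 1 array per group, a difference between a pair of arrays has no replicate check and no p-value, and age cannot be told apart from the length of time on the food.

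Values are MAS5 signals, in which the probes of each probe set are summarised to a single number, scaled to a common trimmed mean on the 4 arrays. A signal below a floor of 19.3 was treated as not measured, and a fold against such a side is a lower bound, written as at least N-fold. The share of genes reaching the floor was 76.2% to 79.2% per array. The labels give 30 males and 30 females for every pool, and the markers of female reproductive tissue went against that label. Of 12 yolk protein and eggshell genes with a probe set, 8 were below the floor on all 4 arrays and only Yp3 was at or above it on all of them. The yolk protein gene Yp1 read 13.4 in young flies without curcumin and 11.7 with it, and 9.55 and 27.4 in the corresponding old flies. Of 8 early germline genes, which testis and ovary can both express, 6 (vas, nanos, piwi, zpg, bam and tut) were below the floor on every array, and aub and bgcn were above it on all 4. In contrast, all 15 measured accessory gland genes were above the floor on all 4. What this means for the sex of the flies in the pools was not tested.

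Of the 10 genes, 5 encode proteins of tMAC or a partner of it, and in this set topi and tomb were the genes with clear signals. The gene topi, which encodes a zinc finger protein, was measured on all 4 arrays with its probe set 1639848_at. It read 46.7 in young flies without curcumin and 42.8 in young flies with it, and 22.9 and 35.8 in the corresponding old flies. Both young arrays were therefore high, the old array with curcumin lay between, and the old array without curcumin was lowest. The gene tomb encodes a CXC-domain protein related to Mip120 (1639996_at). It read 45.4 and 43.6 on the young arrays, was below the floor at 16.9 on the old array without curcumin, and read 29.5 on the old array with it. The order of the 4 arrays was the same as for topi.

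The remaining genes of this set were at the edge of detection. The gene aly, the testis relative of mip130, was below the floor on all 4 arrays (1627064_at), with signals of 13.6, 12.3, 1.30 and 12.8 that have no order. The gene comr, which encodes an acidic nuclear protein, was above the floor on the young array with curcumin alone, at 22.8 (1636050_at). The gene achi encodes a TGIF-type homeodomain protein, and its own probe set (1638702_a_at) passed the floor at 20.4 on the old array with curcumin alone. The probe set assigned jointly to achi and vis gave a stronger signal (1630768_s_at). It read 118.7 and 115.8 on the young arrays, 55.7 on the old array without curcumin and 108.0 on the old array with it. These genes are near-identical neighbours, so their shares in that signal cannot be told apart. The probe set of vis alone read 31.4 and 44.1 in young flies, was below the floor at 11.7 in old flies without curcumin, and read 31.7 in old flies with it.

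Of the 5 testis TAF genes, sa, nht and rye read lower on both old arrays than on both young ones. The gene sa encodes the testis form of TAF8 (1632138_at). It read 66.4 and 74.8 on the young arrays, was below the floor at 16.6 on the old array without curcumin, and read 49.7 on the old array with it. The gene rye encodes the testis form of TAF12 (1624194_a_at), and it read 52.8 and 55.2 in young flies against 20.2 and 31.0 in old flies without and with curcumin. Its second probe set (1641466_at) was below the floor on all 4 arrays. The gene nht encodes the testis form of TAF4 (1631270_at) and read 31.8 and 39.1 in young flies. In old flies it was below the floor at 13.4 without curcumin and just above it at 20.9 with curcumin.

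The other 2 testis TAF genes did not follow this order. The gene mia encodes the testis form of TAF6 (1635813_at) and read 53.1 and 50.8 in young flies, and 50.9 and 57.5 in old flies. It varied least of the 3 members measured on all 4 arrays. The gene can encodes the testis form of TAF5 (1639670_at) and stayed close to the floor, at 20.4 and 23.5 in young flies and 26.8 in old flies with curcumin, and below it at 16.2 in old flies without curcumin. In all, 7 of the 10 members were at or above the floor on 3 or more arrays, and 6 of these 7 had their lowest signal on the old array without curcumin. Among the 9230 genes measured on 3 or more arrays, 35.7% had their lowest signal there.

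**Figure D1:**
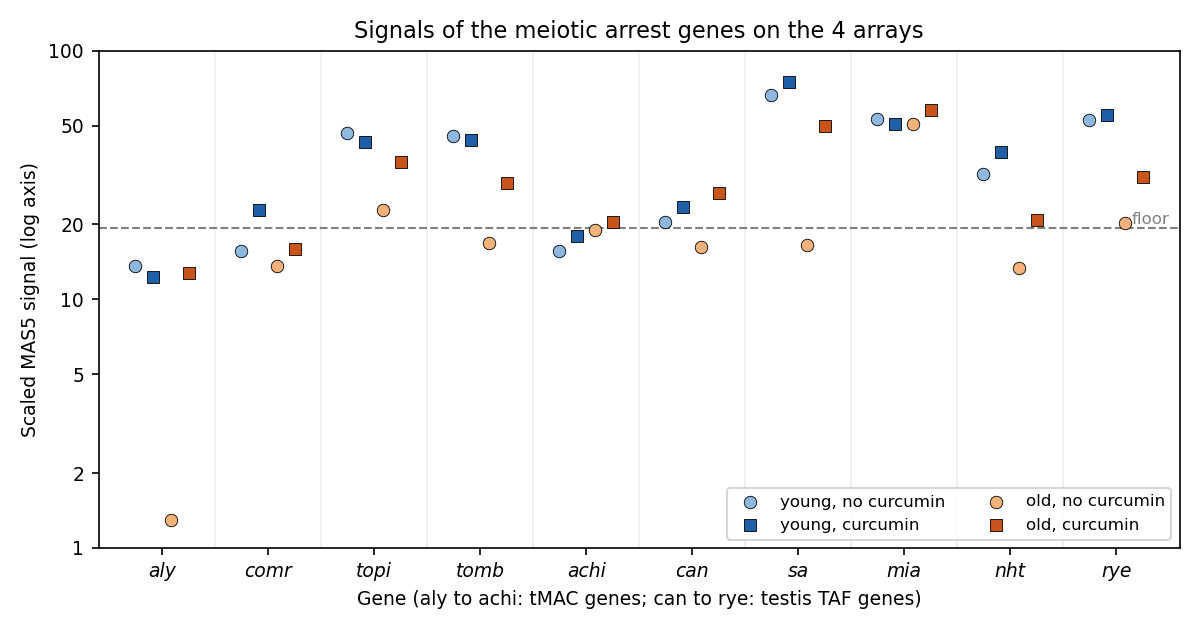
Scaled MAS5 signal (log axis) of the 10 members on the 4 arrays, 1 point per array, with the floor of 19.3 as a dashed line. For topi, tomb, sa, nht and rye the young arrays lie above the old array without curcumin, whereas the 4 points of mia lie between 50.8 and 57.5.

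Without curcumin, 7 of the 10 genes were compared, being at or above the floor on either array. The genes tomb, can, sa and nht were below the floor on the old array, so once compared they could only read lower. Of the 7, 4 were at least 2-fold lower in old than in young flies and none was at least 2-fold higher. These were sa (at least 3.44-fold lower), rye (2.61-fold), tomb (at least 2.35-fold) and topi (2.04-fold). They belong to both sets, with sa and rye among the testis TAFs and topi and tomb in tMAC. The gene nht was at least 1.65-fold lower, and mia differed by -0.06 on the log2 scale. Over all 9712 genes compared in this pair, 9.80% were at least 2-fold lower and 4.21% at least 2-fold higher, or 7.14% and 7.74% with each array centred on its median. With that centring 3 members were at least 2-fold lower, and topi was at -0.82. With that centring or with quantile normalization the difference of mia was above 0 (0.14 and 0.08) and that of can was 0. Among genes whose highest signal lay in the range of the measured members, 20.4 to 74.8, the share at least 2-fold lower was 8.30%. The median log2 difference over the 10 members was -0.40, with aly, comr and achi set at the floor on both arrays, against 0.0 over all genes treated in the same way. In whole flies, fewer spermatocytes, less RNA per spermatocyte and a different share of male tissue in the pool cannot be told apart. When a pseudocount replaced the floor, 1 of the 10 genes, sa, was at least 2-fold lower, and a floor at the 60th percentile left none.

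With curcumin, topi, tomb, sa and rye had smaller age differences, and none of the 10 genes was at least 2-fold apart. The largest were nht (1.87-fold lower), rye (1.78-fold lower) and sa (-0.59 on the log2 scale), followed by tomb (1.48-fold lower) and topi (1.19-fold lower). The genes can and mia were 1.14-fold and 1.13-fold higher. Among the 9748 genes compared on this diet, 2.63% were 2-fold lower or more and 3.00% higher, or 1.85% and 4.24% without rescaling. A size of 1.5-fold lower was reached by 3 of the 9 members compared and by 9.97% of all genes compared. The median over the members was -0.25. This pair shares no array with the pair without curcumin, and 5 of the 7 members compared on both diets (topi, tomb, sa, nht and rye) were lower in old flies on both. Among all 9476 genes compared on both diets, 36.9% were. The direction of tomb, sa and nht without curcumin was fixed by the floor, as given above.

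**Figure D2:**
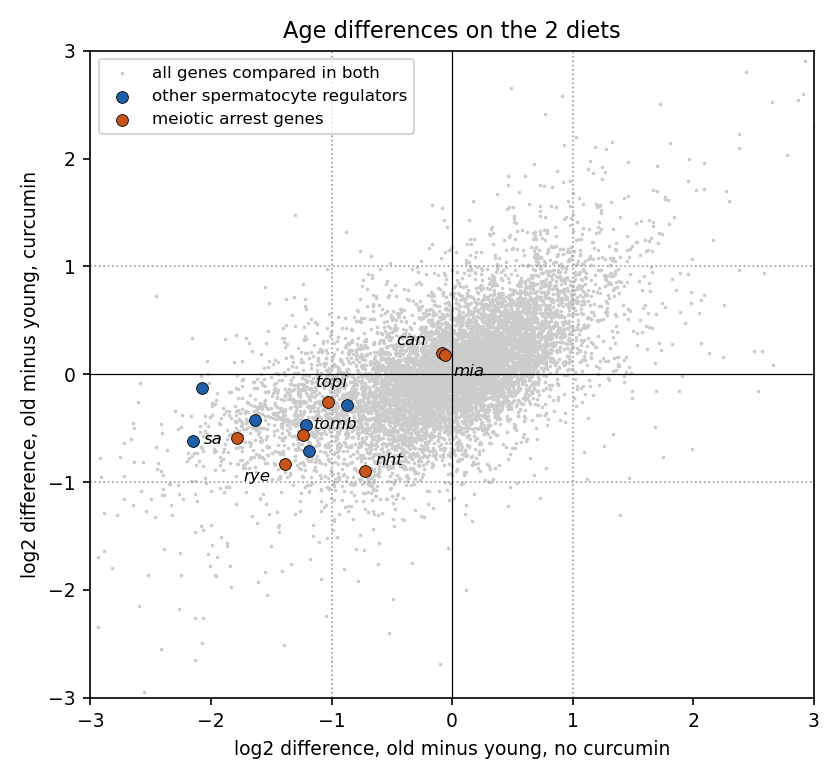
Log2 difference between old and young flies without curcumin (x axis) and with curcumin (y axis) for all 9476 genes compared in both, of which 46 lie outside the axes, for 7 members and for 6 other spermatocyte regulators. The members topi, tomb, sa, nht and rye lie below 0 on both axes, and can and mia lie near the origin.

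In young flies, curcumin food left the 10 genes within a narrow range. None was at least 2-fold apart, as for nearly all genes of this pair, of which 0.389% were higher by 2-fold or more and 0.399% lower among 9764 compared (0.307% and 0.615% without rescaling). The most positive difference was nht at 0.29 and the most negative topi at -0.13 on the log2 scale, and the median over the members was 0.03 (0.0 without rescaling). In old flies, all 8 members compared read higher with curcumin than without, as did 48.3% of all genes compared. Only topi, mia and rye were at or above the floor on both of these arrays. The genes tomb, can, sa, nht and achi were compared only through the array with curcumin. At this scaling and floor they could therefore only read higher. Of the 8 compared, achi, at 0.08, was below 0 with median centring or quantile normalization. The members not compared, aly and comr, were below the floor on both arrays. The gene sa was at least 2.58-fold higher, the 1 member past 2-fold. The genes topi (1.56-fold), rye (1.53-fold) and tomb (at least 1.53-fold) were past 1.5-fold, and can was at least 1.39-fold higher. For the 9611 genes compared, the share higher by 2-fold or more was 5.20% and the share lower was 1.25%, or 4.08% and 2.01% with median centring. A 1.5-fold higher signal or more was found for 12.9%. In the members' signal range 3.02% were at least 2-fold higher. The median over the members was 0.33. This pair shares the old array without curcumin with the age comparison on that diet, so a low signal on that 1 array enters both.

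Over both diets, the age difference was fitted in limma with age and curcumin as additive terms, over the 9562 genes that reached the floor on 2 or more arrays. The 7 members tested were topi, tomb, can, sa, mia, nht and rye, and none passed a Benjamini-Hochberg adjusted p of 0.05 for age. No gene of the 9562 passed it, 0.0% in all, and the smallest adjusted p was 0.124. The lowest limma estimates were sa at -1.18 (SE 0.34, adjusted p = 0.177) and rye at -1.11 (SE 0.22, adjusted p = 0.153), each lower on 2 of 2 old arrays. Then came tomb at -0.90 (SE 0.24, adjusted p = 0.168) and nht at -0.81 (SE 0.18, adjusted p = 0.153). These 4 had an unadjusted p below 0.05, as did 12.0% of all genes tested in the lower direction. The gene topi was at -0.64 (SE 0.26), and can and mia were both at 0.06 (SE 0.19 and 0.18). For curcumin, 0 of 9562 genes, or 0.0%, passed, with 344 at an unadjusted p below 0.05 and none of the members among them. The members' estimates ran from 0.06 for mia to 0.77 for sa, all with an adjusted p of at least 0.830. With median centring, sa and rye passed for age among 982 genes. The fit leaves 1 residual degree of freedom, the difference between the age differences on the 2 diets. A gene whose age difference depends on diet thus has a larger SE, as for sa, whose age differences were 1.19 apart. Nothing in the labels says that the pools came from separate cultures, so the p-values measure no spread between replicate pools.

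Most members have a counterpart that works in cells of all kinds, and none of these was at least 2-fold lower in old flies without curcumin. Over all genes compared in this pair 9.80% were, so none among so few genes is close to that share. The counterparts are mip130 for aly, mip120 for tomb, and Taf5, Taf8, Taf6, Taf4 and Taf12 for can, sa, mia, nht and rye. The general TFIID gene Taf8 read 21.8, was below the floor at 13.5, and read 31.1 and 23.0 on the 4 arrays in the order used above. Its age difference without curcumin was 0.51 on the log2 scale, against at most -1.78 for sa. The corresponding age differences were 0.54 for Taf4 and at most -0.72 for nht, and 0.03 for Taf12 and -1.39 for rye. The Myb-MuvB gene mip120 was at 0.86 and tomb at -1.23 or below. In all 6 pairs with a measured testis gene, the testis gene had the lower age difference without curcumin, including can against Taf5 and mia against Taf6. With curcumin this held in 4 of 6 pairs. For curcumin in old flies, the testis gene had the higher difference in 6 of 6 pairs. That comparison shares the old array without curcumin with the age comparison on that diet, so the counts are not separate results. On that array tomb, can, sa and nht were below the floor. Their age difference could thus only be negative, and their curcumin difference only positive. Of the testis genes in these pairs, only mia and rye were at or above the floor on both arrays in these comparisons. The 8 counterparts, with lin-52 for the tMAC gene wuc, had a median age difference of 0.33 without curcumin. None was at least 2-fold apart in any of the 4 comparisons. Over all genes compared, the shares at least 2-fold lower or higher ran from 0.389% to 9.80% in these comparisons.

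**Figure D3:**
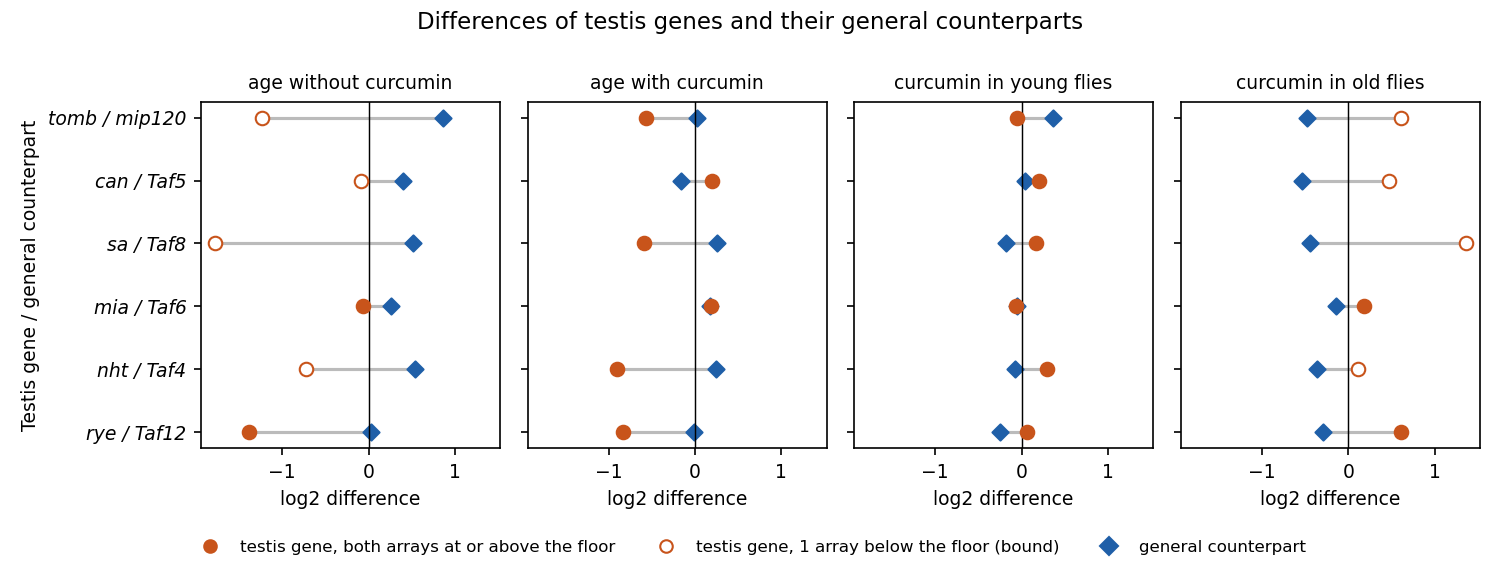
Log2 difference in each of the 4 comparisons for 6 testis genes (circles, open where 1 array was below the floor) and their general counterparts (diamonds), joined by a line per pair. Without curcumin all 6 testis genes lie to the left of their counterpart for age, and in old flies all 6 lie to its right for curcumin. Both of these comparisons use the old array without curcumin.

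The other genes of tMAC split by where they are used. The testis gene wuc, which encodes a relative of Lin-52, read 28.8 and 32.8 in young flies, was below the floor at 2.05 in old flies without curcumin and read 27.3 in old flies with it. As for tomb, the old array without curcumin was lowest, at least 1.49-fold below the young array on that diet. The subunit genes mip40 and Caf1-55, which also work outside the testis, differed little. Without curcumin, mip40 differed by 0.10 and Caf1-55 by 0.0057 with age on the log2 scale.

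Other regulators of spermatocytes read low on the same array. All 7 genes of this list were lower in old than in young flies without curcumin, and 5 of 7 at least 2-fold, with a median log2 difference of -1.21. Of all genes compared, 51.1% were lower in this pair by any size and 9.80% at least 2-fold. On the old array kmg and dany were below the floor, so once compared they could only read lower. The bromodomain genes tbrd-1 and tbrd-2 were lowest. The gene tbrd-1 read 125 and 123 in young flies, and 28.2 and 80.4 in old flies without and with curcumin, and tbrd-2 read 90.8, 80.0, 21.6 and 73.1 in that order. The zinc finger gene kmg, which keeps somatic promoters silent in spermatocytes, was at least 3.10-fold lower, and the RNA-binding protein gene Rbp4 was 2.32-fold lower. With curcumin, 0 of 7 were at least 2-fold lower with age, against 2.63% of all genes compared, with a median of -0.42. In old flies tbrd-1 and tbrd-2 were 2.85-fold and 3.39-fold higher with curcumin than without it. The lowest signal of all 6 regulators measured on 3 or more arrays was on the old array without curcumin. In limma none of these 6 passed for age, with adjusted p from 0.153 for tbrd-3 to 0.273 for tbrd-2.

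Genes that are switched on under tMAC and the testis TAFs showed smaller differences. Of 16 spermatid differentiation genes with a probe set, all were measured on the 4 arrays. In old flies without curcumin, 1 of the 16, Mst84Dd, was at least 2-fold lower, not far from the 9.80% over all genes compared. The gene Mst84Dd read 527 and 413 in young flies and 253 and 333 in old flies without and with curcumin. The list median was -0.24 for age without curcumin, -0.10 with curcumin and 0.04 for curcumin in old flies. Without rescaling the median for age with curcumin was 0.03, and with median centring that for curcumin in old flies was -0.07. The protamine genes Mst35Ba and Mst35Bb differed by 0.06 each with age without curcumin, and the fuzzy onions gene fzo, needed for mitochondrial fusion in spermatids, by -0.67. Of the cell cycle genes, twe, the meiotic Cdc25 phosphatase, was below the floor on 3 of the 4 arrays. The RNA-binding gene bol, which promotes twe translation, was lower by -0.88 without and -0.28 with curcumin. The cyclin gene CycB, used in all dividing cells, was higher by at least 0.81.

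Genes of the male reproductive tract outside the testis also read low on the old array without curcumin. Of 15 accessory gland genes, 6 were at least 2-fold lower in old flies without curcumin, against 9.80% of all genes compared, with a median of -0.90. For curcumin in old flies, 6 of the 15 were at least 2-fold higher, against 5.20% of all genes compared, with a median of 0.89. The summed signal of the accessory gland genes was 53073 and 50807 on the young arrays, 29558 on the old array without curcumin and 51057 on the old array with it. The accessory gland gene Acp53C14c was 6.58-fold lower with age without curcumin, and Acp26Ab was 2.23-fold higher with age on curcumin. For 5 genes of the ejaculatory duct and bulb the median was -1.53 for age without curcumin and 1.06 for curcumin in old flies. Of these, Anp, EbpII and Ebp were 5.24-fold, 3.06-fold and 2.88-fold lower with age without curcumin, and Gld differed by 0.04 on the log2 scale. For age with curcumin, the accessory gland median was near 0, at -0.00061, or 0.22 with quantile normalization. The ejaculatory duct and bulb median for that comparison was -0.39, further below 0 than the members' -0.25. The part of these tissues in the members' differences was not tested. Genes of early germ cells gave little signal, with 6 of 8 below the floor on all arrays as given above. The piRNA pathway gene aub read 34.9 and 30.6 in young flies, and 35.7 and 28.6 in old flies without and with curcumin. The measured gene bgcn, a partner of bam, read 108 and 108 in young flies, and 64.4 and 77.5 in old flies without and with curcumin. Of 4 genes used in testis somatic cells, which other tissues also express, Sox100B read 32.9 and 32.4 in young flies, and 56.5 and 53.8 in old flies, and eya differed by -0.35 with age without curcumin. The gene zfh1 read 35.1 and 34.9 in young flies, 60.0 in old flies without curcumin and 26.8 in old flies with it, 2.24-fold lower with curcumin, and tj was below the floor on all 4 arrays.

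**Figure D4:**
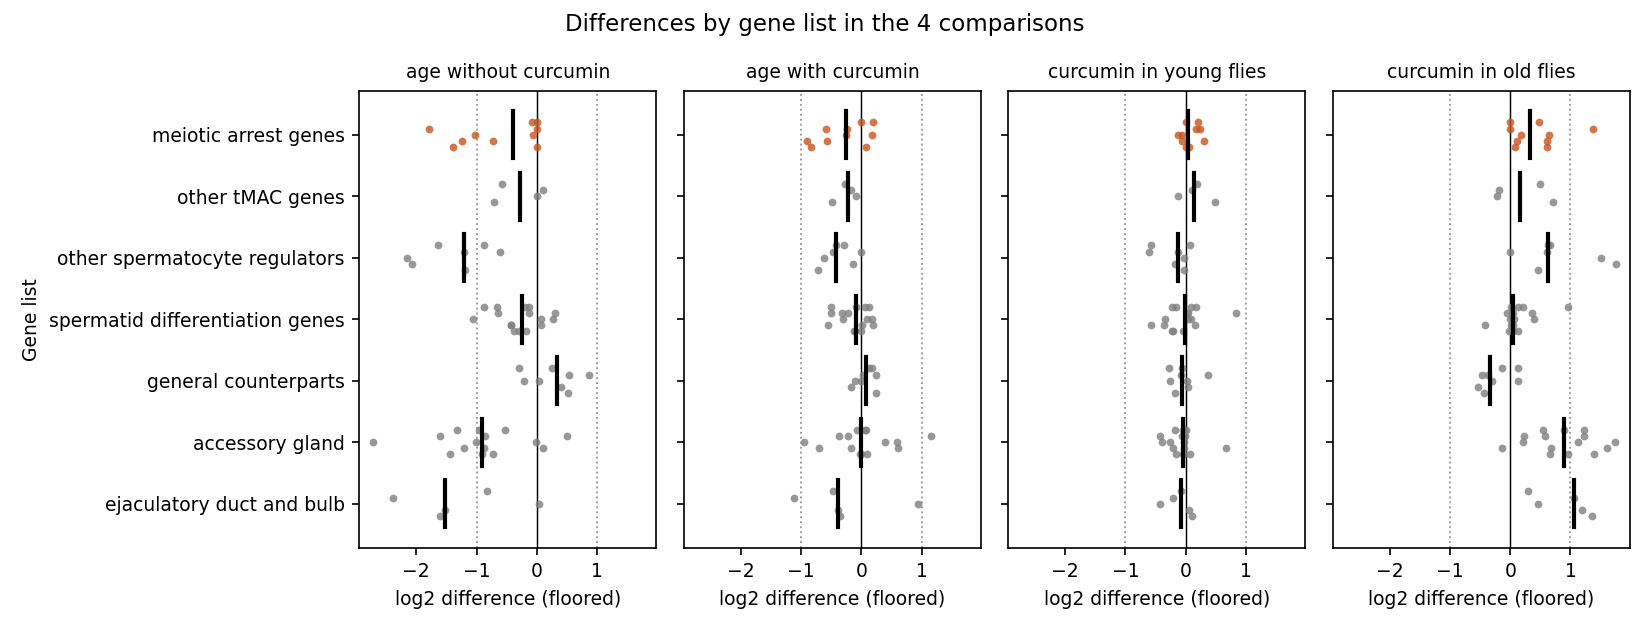
Log2 difference of each gene (points, set at the floor where below it) and the list median (bars) for 7 gene lists in the 4 comparisons, with dotted lines at 2-fold. The bars of all lists but the general counterparts lie below 0 for age on both diets, with that of the accessory gland near 0 with curcumin. Without curcumin the bars of the members and of the other spermatocyte regulators lie at -0.40 and -1.21. For age the bars of the general counterparts lie above 0.

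The genes nearest to the median pattern of the 3 members measured on all arrays were CG7742, CG15728, CG17292, Srr and PPO1. Likeness was the root mean square distance over the 4 arrays between a gene and the median over topi, mia and rye, after each gene's mean log2 signal was subtracted. The distances were 0.018 to 0.024, against a median of 0.44 over 8673 other genes measured on all 4 arrays. The median pattern was 0.38 and 0.26 on the young arrays, -0.64 on the old array without curcumin and 0.00042 on the old array with it. On every array the median of the 3 was the value of topi, so these genes are near topi, and neither the flat mia nor the 7 other members set the pattern. The nearest gene, CG7742, read 164 and 152 in young flies, and 83.3 and 126.7 in old flies without and with curcumin. With 4 points per gene, such matches are a description of these arrays.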

How the data were processed

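RNA from 4 whole-fly pools was measured on 4 arrays. The deposited values are log2 MAS5 signals per probe set, per the submitters' processing notes (MAS5, version not given in the sources used here) and the values themselves, which run from -4.67 to 13.4. They were back-transformed, scaled to a common 2% trimmed mean (factors 0.975 to 1.06), floored at the 40th percentile pooled over arrays and log2-transformed again. No detection calls were used. Of 18769 probe sets, 13646 named 1 gene, 402 several and 4721 none. Of the 13646, 13543 matched the gene table of Release 6 by gene number, and for the rest the symbol given by the platform was used. The probe set with the highest mean stood for a gene.

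Age and curcumin over all arrays were fitted with limma 3.58.1 (R 4.3.3, lmFit and eBayes, Benjamini-Hochberg adjustment), and the script was tested on simulated data. The variance prior had an SD of 0.20 with 3.09 degrees of freedom. Python 3.11.15 with numpy 2.4.6 and pandas 2.3.3 was used. The arrays' number limits precision. Named genes were all members, their counterparts, the other tMAC genes, some members of the further lists and the 5 genes nearest in pattern. Further list members are examples chosen after their values were seen. The members and lists were chosen with earlier results of these data known. Alternatives were other scalings, floors, a pseudocount of 16, the mean over probe sets, a 1.5-fold threshold, other limma settings and leaving out each array.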

Additional observations from a re-analysis of the deposited data

Results flagged for a closer look

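The members topi and mia had differences of opposite sign in the groups set side by side, on pairs measured at or above the floor throughout. For topi, the curcumin difference was 0.64 in old and -0.13 in young flies, 0.77 apart on the log2 scale. For mia, the age difference was 0.18 with and -0.06 without curcumin, 0.24 apart, and its curcumin difference was 0.18 in old and -0.06 in young flies, also 0.24 apart. With median centring or quantile normalization the age difference of mia without curcumin was 0.14 or 0.08, so its age differences then had the same sign. With 1 array per group these differences between groups were not tested.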

How the results depend on the processing

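The members' signals lie close to the floor, which limits every value, and the size of their differences depended on it. Without a floor the median over the 10 members was -1.14 for age without curcumin and 0.64 for curcumin in old flies. With the floor at the 25th percentile these were -0.98 and 0.64, and the pseudocount gave -0.70 for age without curcumin. A floor at the 60th percentile, a signal of 68.1, left only sa above it on any array. The medians were then 0.0 for age without and with curcumin and for curcumin in old flies, and no member could be tested in limma. Of the 8 other scalings, floors and summaries, 7 kept sa at least 2-fold lower with age without curcumin, 6 tomb, 5 rye and 4 topi. Also 7 kept sa at least 2-fold higher with curcumin in old flies. Centring each array on its median shifted age differences without curcumin by 0.21, where mia became 0.14. In limma, 0 genes passed for age, but 982 of 9566 did with that centring, among them sa and rye, and 8 with the highest floor, and the cause was not tested. Under the other alternatives no member passed. Leaving out 1 array, a value with no test, leaves only the difference of the 1 complete pair, so it is no separate check. The median over the 7 tested members then ran from -1.03 to -0.57 for age (-0.81 in full). For curcumin it ran from 0.062 to 0.61 (0.28 in full). The values of -1.03 came without either array with curcumin, and those of 0.062 without either old array. No paired analysis was possible because each group has 1 array.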
